A study of Mus musculus with 12 samples.

Results

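Mouse embryonic stem cells that lack all 3 retinoic acid receptors were compared with wild-type cells after both had received all-trans retinoic acid (ATRA). The comparison rested on 6 of the 12 samples in the series, chosen by genotype and treatment as the columns of the expression table name them, and it was read across all genes. In 3 samples the cells were wild type (WT), and in 3 they carried RARalpha-/-, RARbeta-/- and RARgamma-/- (triple knockout, TKO). All 6 were labelled strain SV129, were grown on gelatin-coated plates in medium with leukaemia inhibitory factor (LIF), and received 1 uM ATRA for 24 h. The other 6 samples, WT and TKO cells given the ethanol vehicle for 24 h with 0 uM ATRA, entered the same model and are quoted as the background. How the alleles were removed, whether the TKO cells were 1 clone, and whether the 3 samples of a group were separate cultures are questions that the labels do not answer, and p-values therefore measure the spread between these libraries, which may be technical. The table named the libraries by the letters D, F and G, and values below follow that order within each genotype.

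Retinoic acid receptors are nuclear receptors that bind ATRA and sit on DNA as partners of the retinoid X receptors. Without ligand they can hold target genes down through corepressors, and with ligand they recruit coactivators. In embryonic stem cells ATRA is known to switch on its own degrading enzymes, the Hox genes and other early differentiation genes, while genes of the naive pluripotent state are turned down.

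Levels are in FPKM (read fragments divided by transcript length and by the mapped reads of the library), so they can be compared between genes of different length, but they are relative to each library's total. Differences are TKO minus WT in log2(FPKM + 1), a scale that shrinks the changes of weakly expressed genes. A gene is said to be higher or lower, to have risen or fallen, or to be called, where limma's moderated test gave a Benjamini-Hochberg adjusted p below 0.05 over the 12362 genes tested, which were those that reached 1 FPKM in 3 libraries or more. In RNA from a whole culture, fewer cells of a type and less RNA per cell cannot be told apart.

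With ATRA present, TKO and WT cells differed at 5201 of the 12362 genes tested (42.1%), and the libraries of the genotypes did not overlap at 6405 (51.8%). In TKO cells 2023 genes were higher (16.4%) and 3178 were lower (25.7%). Calls with at least a 2-fold difference numbered 428 higher (3.46%) and 716 lower (5.79%). The lower side held the larger share with the values as deposited, where 38.9% of the calls were higher, but this imbalance depended on scaling: it was 49.6% after median-of-ratios scaling and 49.4% after quantile normalization. The largest falls, chosen by a stated rule of size, were in genes of retinoid metabolism, Hox genes and Stra8, and the largest rise was in Tdh, an enzyme of threonine breakdown known for its high level in mouse embryonic stem cells.

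**Figure D1:**
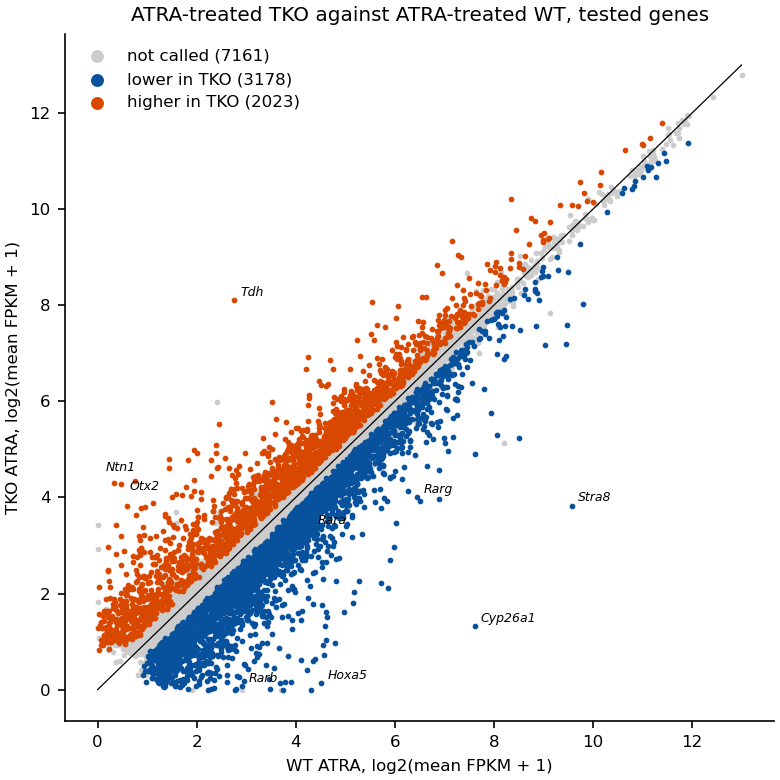
Mean level of each tested gene in ATRA-treated WT libraries (horizontal axis) and ATRA-treated TKO libraries (vertical axis), as log2(mean FPKM + 1), 3 libraries per group. Orange points are the 2023 genes called higher in TKO, blue points the 3178 called lower and grey points the genes not called; the line marks equal levels. Stra8 and Cyp26a1 lie far below the line and Tdh far above it.

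The libraries were close to each other within groups, with correlations of log2 values of 0.976 to 0.988 among the WT and 0.980 to 0.993 among the TKO libraries with ATRA. The median absolute log2 difference between 2 libraries was 0.105 to 0.224 within the TKO group, 0.160 to 0.237 within the WT group and 0.313 to 0.451 between them. ATRA-treated TKO libraries were nearer to vehicle-treated WT libraries, at 0.224 to 0.379, than the pairs across genotype with ATRA. Between vehicle-treated and ATRA-treated TKO libraries the range was 0.0503 to 0.254, and its lowest values, 0.0555 for D, 0.0503 for F and 0.0756 for G, were those of libraries with the same letter, below the spread within either TKO group. The files hold no counts, so absolute depth is unknown. At low levels FPKM values move in steps worth 1 read, and these steps put the other libraries, apart from the D library of WT with ATRA, at 1.02 to 1.38 times the depth of the D library of TKO with ATRA. In WT with ATRA, the D library had such steps at only 3.19% of its low genes, against 9.38% to 31.7% elsewhere. Without it the count of calls was 4026. Without it and the F library of TKO, which lay apart from the D and G libraries, 3341 genes were called.

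The targeted receptors were lower in TKO cells but were not at 0. Rarb (chr14:16430839-16819156, minus strand) read 7.30, 7.29 and 5.13 FPKM in WT cells with ATRA and 0.0674, 0.0150 and 0.0725 FPKM in TKO cells. Rarg (chr15:102234938-102257517, minus strand) read 87.8, 73.0 and 98.7 FPKM in WT and 14.5, 17.4 and 13.1 FPKM in TKO cells. Rara (chr11:98927818-98974942, plus strand) read 20.04, 17.4 and 19.1 FPKM in WT and 8.38, 9.82 and 9.70 FPKM in TKO cells. For each receptor all 3 WT libraries lay above all 3 TKO libraries. The log2 difference was -2.83 for Rarb (SE 0.13, adjusted p 1.2e-07), -2.45 for Rarg (SE 0.19, adjusted p 3.8e-06) and -0.95 for Rara (SE 0.14, adjusted p 0.000365). Rarb reached 1 FPKM in ATRA-treated WT libraries only, so the expression filter set the direction of its difference. FPKM over a whole gene does not show whether the remaining reads came from the deleted part, and reads of Rarb cannot be told apart from those of its opposite-strand neighbours such as Top2b where strand was not kept.

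The receptor differences were also compared between ATRA and vehicle. Rarb, itself a known ATRA-induced gene, was 0.361 ± 0.137 FPKM (SD, n = 3) in WT vehicle libraries and 0.132 ± 0.00861 FPKM (SD, n = 3) in TKO vehicle libraries, a difference of -0.26 that was not called (adjusted p 0.161). The difference between the 2 genotype differences was -2.57 (adjusted p 1.8e-05). Rarb entered the test only through ATRA-treated WT libraries, which partly set this direction too. For Rara and Rarg the corresponding values were -0.62 (adjusted p 0.114) and -0.84 (adjusted p 0.108), neither called in this model. Libraries of 1 genotype with the same letter deviated together between vehicle and ATRA, and with genotype and letter as a block both were called, with adjusted p 0.000595 for Rara and 4.6e-05 for Rarg. The partner receptors moved less: Rxrb was 37.1 ± 2.39 FPKM (SD, n = 3) in WT and 27.4 ± 0.987 FPKM (SD, n = 3) in TKO cells, a difference of -0.42 (adjusted p 0.00225), and Rxra differed by -0.39 (adjusted p 0.017). The Rxra call was lost without the D library of WT (adjusted p 0.0622), without the D library of TKO (0.0552) or without the G library of TKO (0.0656).

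The promoters of Rarb and Cyp26a1 are shown here because these were the only genes, among the 511 with at least a 2-fold fall and a promoter window, whose window from 250 bases before to 50 bases after the start held a direct repeat with a 5-base gap, the classic arrangement bound by retinoic acid receptors. The repeat unit searched for was AGGTCA. Variants allowed in either copy were AGTTCA and also GGTTCA or else GGGTCA. Copies pointed in 1 direction with 5 bases between them, and both strands were searched. Sequences are the part of that window before the start, from RefSeq (GRCm38.p6), 5′ to 3′ on the gene's strand, from 250 bases before the start to the base before it, with the repeat units in capitals. The Cyp26a1 sequence is chr19:37697558-37697807 (plus strand), the repeat lies on the other strand, and it covers bases 32 to 16 before the start. The Rarb sequence is chr14:16575477-16575726 (minus strand), and its repeat lies on the gene's own strand, 53 to 37 bases before the start.
Cyp26a1: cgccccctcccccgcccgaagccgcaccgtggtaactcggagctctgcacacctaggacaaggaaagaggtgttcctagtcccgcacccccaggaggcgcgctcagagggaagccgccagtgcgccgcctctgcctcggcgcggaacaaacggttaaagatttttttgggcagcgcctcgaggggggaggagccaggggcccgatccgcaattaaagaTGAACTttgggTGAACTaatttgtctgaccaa
Rarb: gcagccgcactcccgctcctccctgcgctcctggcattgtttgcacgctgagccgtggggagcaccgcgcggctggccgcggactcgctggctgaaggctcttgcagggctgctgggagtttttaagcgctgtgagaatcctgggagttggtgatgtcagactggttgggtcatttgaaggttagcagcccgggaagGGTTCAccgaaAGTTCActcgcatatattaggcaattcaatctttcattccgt
In the same search 32 of the 32851 promoter windows in the RefSeq table held the repeat (0.0974%). Of the tested genes with a window, 2 of 511 called lower by at least 2-fold held it (0.391%), 3 of 2355 called lower in all (0.127%), 1 of 1518 called higher (0.0659%) and 0 of 5293 not called. The third gene called lower was Blvrb and the gene called higher was Syndig1. With 2 bases between the units, 2 of 511 with at least a 2-fold fall, 6 of 2355 called lower, 0 of 1518 called higher and 3 of 5293 not called held a repeat. With 1 base between, the counts were 0, 4, 6 and 19. Of the 12 largest falls, 9 had a window and 1 of them held the repeat. A match describes these letters only, and windows of this length leave out more distant sites.

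Genes that handle retinoids included the gene with the largest fall on the log2(FPKM + 1) scale. Of the 18 listed, 13 were tested, and 5 of these were not called. With ATRA 7 were lower in TKO cells (53.8%, against 25.7% of all tested genes) and 1 was higher (7.69%, against 16.4%). The median was -0.69, against -0.07 over all tested genes. In vehicle none of the 13 was lower and 2 were higher. Here 3 of the 13, Cyp26b1 and Dhrs3 among them, passed the expression filter only through the ATRA-treated WT libraries, so their fall is partly set by the filter.

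Cyp26a1 (chr19:37697798-37701536, plus strand), whose enzyme degrades retinoic acid, read 243, 122 and 218 FPKM in WT and 1.06, 1.89 and 1.51 FPKM in TKO cells with ATRA. In vehicle it was 0.493 ± 0.191 FPKM (SD, n = 3) in WT and 1.36 ± 0.325 FPKM (SD, n = 3) in TKO cells. The TKO libraries with ATRA thus stayed near the vehicle level while every WT library was far above it. The difference with ATRA was -6.25 (SE 0.24, adjusted p 2.4e-08), the largest fall with 1 FPKM added before the log, and it differed from that in vehicle by -6.91 (adjusted p 1.2e-06). With 0.1 FPKM added instead, Hoxb2 and Snora44, both listed at 0 in TKO cells with ATRA, ranked ahead of it. Cyp26b1, a second enzyme of this kind, read 8.32, 6.26 and 20.9 FPKM in WT and 0.103, 0.117 and 0.0873 FPKM in TKO cells. Its WT libraries were spread more widely than those of Cyp26a1 but did not overlap the TKO libraries, and the difference was -3.37 (SE 0.30, adjusted p 9.4e-06). Cyp26b1 passed the filter through ATRA-treated WT libraries only, which set its direction.

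Among transport and storage genes, Stra6, the membrane receptor for the retinol carrier, read 22.0, 21.1 and 25.1 FPKM in WT and 0.467, 0.929 and 0.542 FPKM in TKO cells (difference -3.86, SE 0.19, adjusted p 1.6e-07). Dhrs3, a retinaldehyde reductase that lowers retinoic acid production, read 20.2, 12.3 and 20.7 FPKM in WT and 0.242, 0.334 and 0.391 FPKM in TKO cells (difference -3.79, SE 0.18, adjusted p 1.6e-07). Neither gene's groups overlapped, and both were below 1 FPKM on average in both vehicle groups. The direction of Dhrs3 was set by the expression filter, which it passed through ATRA-treated WT libraries only. Crabp2, which carries retinoic acid to the nucleus, was 8.44 ± 3.82 FPKM in WT and 2.31 ± 0.223 FPKM in TKO cells (SD, n = 3; difference -1.44, adjusted p 0.00281). Its relative Crabp1, which binds retinoic acid in the cytoplasm, was 17.8 ± 0.432 and 22.0 ± 2.64 FPKM (SD, n = 3), and the difference of 0.28 (95% interval 0.02 to 0.54) was not called (adjusted p 0.0801). Fabp5, the gene called higher in the list (difference 0.32, adjusted p 0.0204), lost its call without the D or F library of WT or the D library of TKO (adjusted p 0.0615, 0.0688 and 0.0864), and 2 genes were higher without the F library of TKO.

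**Figure D2:**
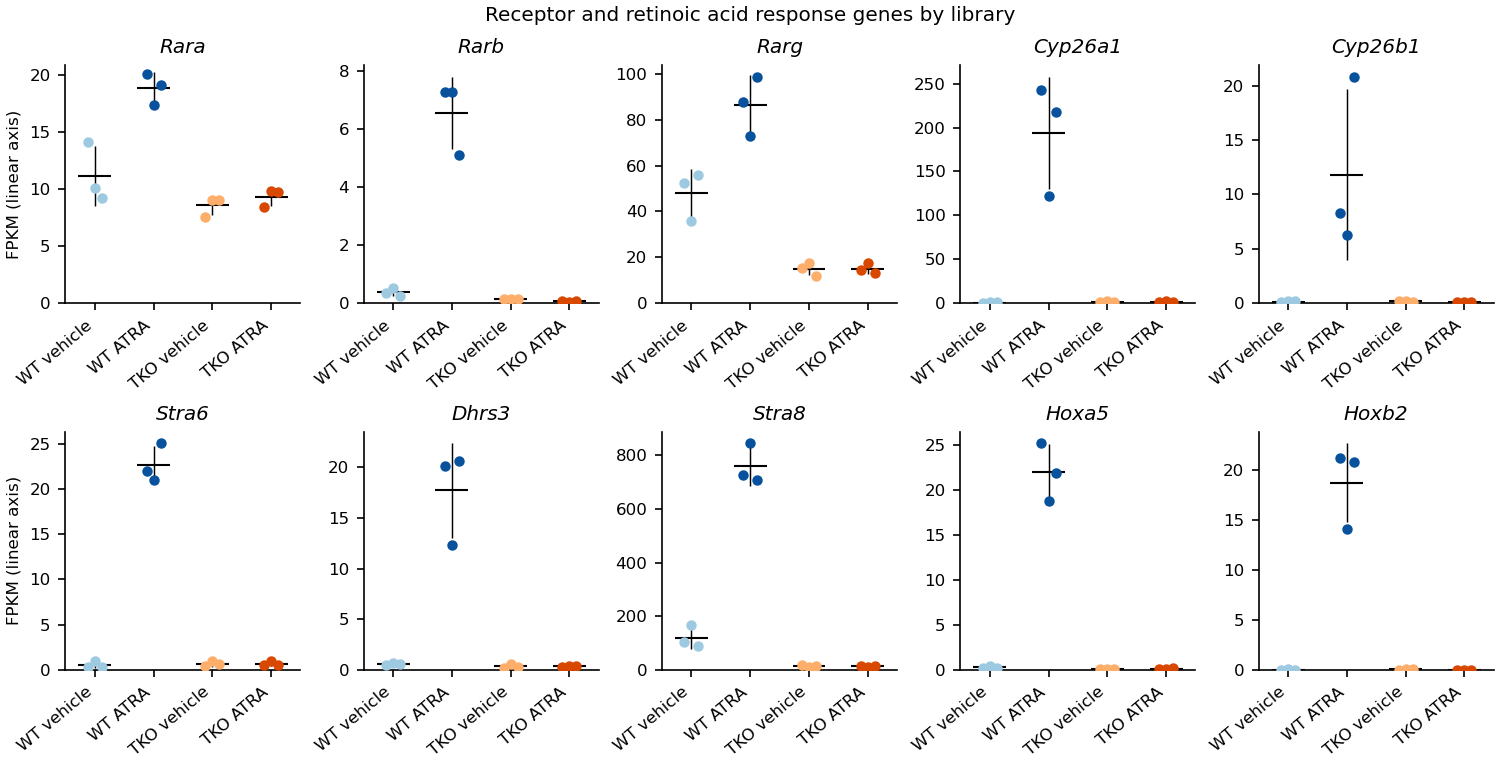
FPKM (linear vertical axes from 0) of 10 receptor and retinoic acid response genes in each of the 12 libraries, grouped by genotype and treatment. Points are libraries, horizontal bars the means and vertical bars 1 SD (n = 3; bars stop at 0). Cyp26a1, Cyp26b1, Stra6, Dhrs3, Hoxa5 and Hoxb2 were high in ATRA-treated WT cells and near 0 in the other groups, while Rarg and Rara kept a level above 0 in TKO cells.

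Other genes known to respond to retinoic acid were lower in TKO cells with few exceptions. Of 25 listed, 19 were tested, and 16 were lower (84.2%), 2 higher (10.5%) and 1 not called, with a median of -0.88. Of all tested genes 25.7% were lower and 16.4% higher. Of the 19, 4 passed the filter only through ATRA-treated WT libraries. Ccno, 1 of the 2 called higher, reached 1 FPKM in TKO libraries only, so the filter set its direction. Stra8 (chr6:34920163-34939344, plus strand), the retinoic acid-induced gatekeeper of meiosis in germ cells, read 727, 845 and 707 FPKM in WT and 15.3, 10.6 and 13.7 FPKM in TKO cells. It was already at 119 ± 40.8 FPKM (SD, n = 3) in WT vehicle libraries and at 13.5 ± 3.199 FPKM (SD, n = 3) in TKO vehicle libraries. TKO cells therefore read alike with and without ATRA, and WT cells were above them in both. The difference was -5.75 with ATRA (SE 0.23, adjusted p 3.6e-08) and -3.02 in vehicle (adjusted p 1.9e-05).

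Among transcription factors of the list, Zfp703 read 10.6, 8.33 and 13.3 FPKM in WT and 0.177, 0.677 and 0.271 FPKM in TKO cells (difference -3.09, adjusted p 4.4e-07). Meis1, a DNA-binding partner of Hox proteins, fell from 3.59 ± 0.570 to 0.461 ± 0.159 FPKM (SD, n = 3; difference -1.65, adjusted p 6.7e-06). The libraries of the genotypes did not overlap for either gene. Nrip1, a corepressor that binds nuclear receptors, fell from 9.66 ± 0.958 to 1.52 ± 0.246 FPKM (SD, n = 3; difference -2.08, adjusted p 8.8e-07), and in vehicle it was 1.52 ± 0.0874 FPKM in WT and 1.503 ± 0.403 FPKM in TKO cells (SD, n = 3). Btg2, an antiproliferative gene, went the other way, from 9.98 FPKM in WT to 21.8 FPKM in TKO cells on average (difference 1.08, adjusted p 0.00456). Spry4, an inhibitor of receptor tyrosine kinase signalling, was not called (difference 0.82, 95% interval 0.01 to 1.63, adjusted p 0.0971).

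The Hox genes, which give cells their position along the body axis, were lower in TKO cells almost without exception among those tested. All 39 were in the table and 20 were tested. Of these, 19 were lower (95%, against 25.7% of all tested genes), none was higher (against 16.4%), and Hoxc13 was not called (difference 0.15, 95% interval -0.22 to 0.53). Because 16 of the 20 passed the filter only through the ATRA-treated WT libraries, they had to be lower in TKO cells, and this count is a description. Over all lists 26 genes reached 1 FPKM in ATRA-treated WT libraries only and 12 in TKO libraries only, which set their direction in the same way. Summed over the 39 genes, the level was 187, 138 and 189 FPKM in WT and 9.67, 9.23 and 8.69 FPKM in TKO cells.

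In the Hoxa cluster, Hoxa5 (chr6:52201754-52204587, minus strand) read 25.1, 18.8 and 21.9 FPKM in WT and 0.0876, 0.0519 and 0.171 FPKM in TKO cells (difference -4.37, SE 0.12, adjusted p 3.3e-09). Hoxa4 fell from 14.0 ± 1.93 to 0.121 ± 0.0890 FPKM and Hoxa3 from 12.8 ± 2.04 to 0.110 ± 0.0168 FPKM (SD, n = 3). Other members were lower in WT cells, such as Hoxa7 at 3.08 ± 0.420 FPKM and Hoxa2 at 2.54 ± 0.741 FPKM (SD, n = 3). Of the Hox genes, 2 were called lower in vehicle as well, and for 19 the genotype difference was more negative with ATRA than in vehicle.

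In the Hoxb cluster Hoxb2 (chr11:96350525-96354012, plus strand) read 21.2, 14.1 and 20.8 FPKM in WT cells with ATRA and was listed at 0 in all 3 TKO libraries. Hoxb5 read 6.19, 3.87 and 7.40 FPKM in WT and was likewise listed at 0 in TKO cells. Hoxb1, the earliest Hox gene to answer retinoic acid in the hindbrain, read 10.9, 4.48 and 15.2 FPKM in WT and 0, 0.0193 and 0.0185 FPKM in TKO cells. The G library was the highest and the F library the lowest of the WT libraries for Hoxb1, as it was for Hoxb4 at 9.93, 5.49 and 14.4 FPKM. The only tested Hoxc gene called was Hoxc4, at 2.28 FPKM in WT and 0.825 FPKM in TKO cells on average (difference -0.85, adjusted p 0.00189), and no Hoxd gene was tested. Across all genes, 3 had at least 1 FPKM in every ATRA-treated WT library and were listed at 0 in every ATRA-treated TKO library, namely Hoxb2, Hoxb5 and Snora44, and none showed the reverse. With a limit of 0.1 FPKM in the other genotype there were 18 genes present in WT only, 8 of them Hox genes and 1 Rarb, and 4 present in TKO only, A230070E04Rik, Pifo, Plagl1 and Ptgs2.

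Genes of the naive pluripotent state stayed higher in TKO cells. All 22 listed were tested, and 13 were higher (against 16.4% of all tested genes), none was lower and 9 were not called, with a median of 1.01; the count of higher genes was 11 to 14 and of lower genes 0 under every alternative setting run. In vehicle 3 were higher and 2 lower, with a median of -0.08. Tdh (chr14:63492347-63509092, minus strand) read 5.40, 6.76 and 5.07 FPKM in WT and 316, 235 and 274 FPKM in TKO cells (difference 5.35, SE 0.17, adjusted p 6.8e-09). Its vehicle levels were 103 ± 24.5 FPKM in WT and 278 ± 37.9 FPKM in TKO cells (SD, n = 3), so the TKO level was the same within its spread with and without ATRA.

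Transcription factors of this state followed at smaller sizes. Zfp42 (Rex1), a classic marker of undifferentiated cells, read 127, 197 and 135 FPKM in WT and 607, 446 and 526 FPKM in TKO cells (difference 1.79, adjusted p 1.4e-05). Nr0b1 (Dax1), an orphan nuclear receptor, read 20.1, 36.1 and 18.7 FPKM in WT and 114, 101 and 129 FPKM in TKO cells (difference 2.21, adjusted p 1.4e-05). Klf2, a Kruppel-like factor of the naive network, read 18.3, 27.0 and 8.58 FPKM in WT and 120.2, 87.3 and 152 FPKM in TKO cells (difference 2.77, adjusted p 5.7e-05). The groups did not overlap for these genes, and for all of them the WT library with the highest level was the F library. Nr5a2, which can drive Pou5f1, rose from 5.91 ± 1.02 to 22.7 ± 1.44 FPKM (SD, n = 3; difference 1.79, adjusted p 1.0e-06), and Esrrb from 116 ± 39.0 to 205 ± 19.4 FPKM (SD, n = 3; difference 0.87, adjusted p 0.00406). Mybl2, a cell-cycle transcription factor, rose from 98.6 ± 14.6 to 288 ± 32.4 FPKM (SD, n = 3; difference 1.54, adjusted p 1.2e-05).

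Not all members of the naive network differed. Nanog read 202, 429 and 235 FPKM in WT and 399, 386 and 345 FPKM in TKO cells, so the F library of WT lay above all TKO libraries. The difference of 0.46 (95% interval -0.10 to 1.03) was not called (adjusted p 0.172), but it was called at 0.79 without the F library of WT (adjusted p 0.0106). Klf5 differed by -0.17 (95% interval -0.73 to 0.39), and its groups overlapped at 143, 172 and 109.7 FPKM in WT and 155, 80.5 and 152 FPKM in TKO cells. Dppa5a, among the most abundant transcripts of these cells, was 3353 ± 273 FPKM in WT and 3525 ± 25.4 FPKM in TKO cells (SD, n = 3; difference 0.08, 95% interval -0.09 to 0.24).

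**Figure D3:**
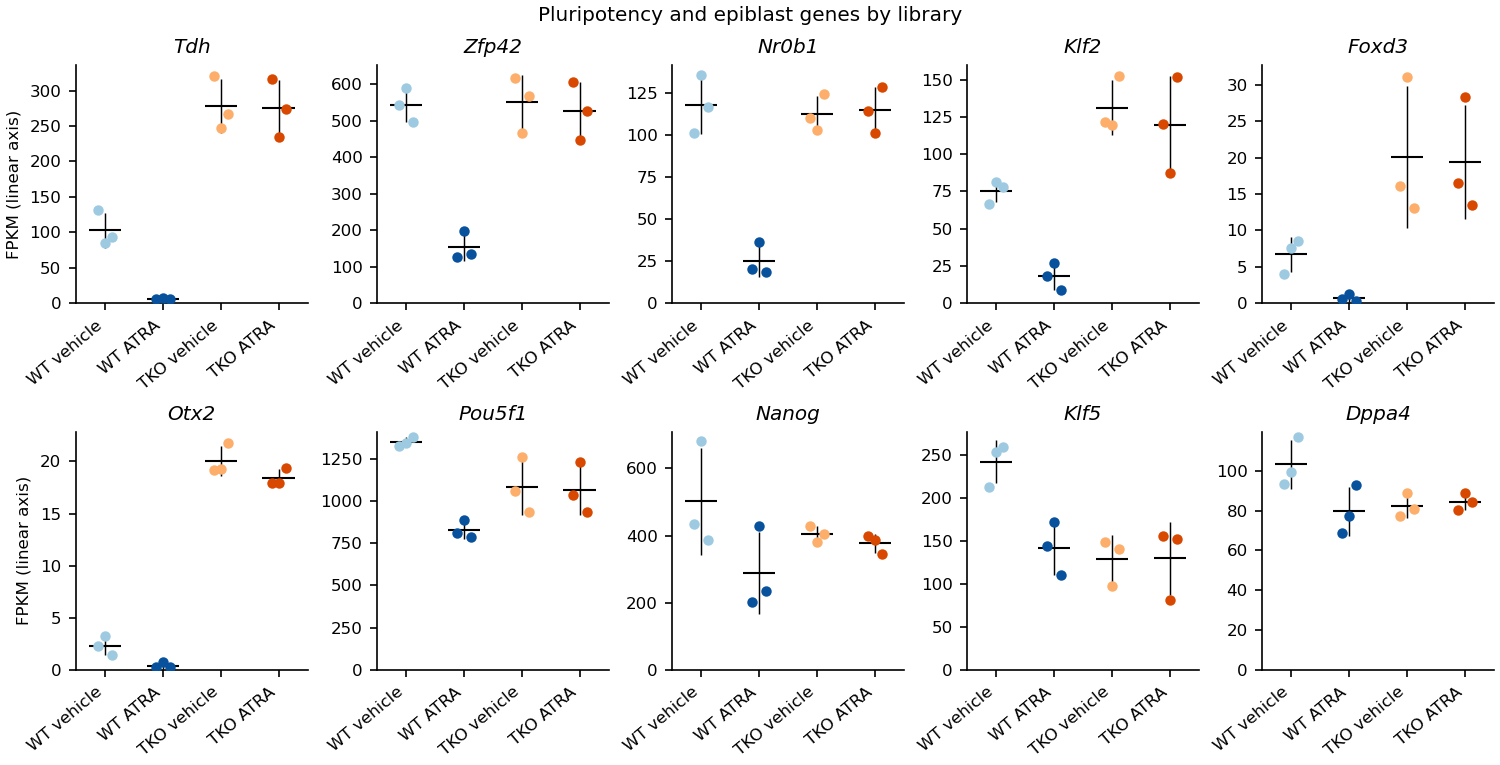
FPKM (linear vertical axes from 0) of 10 pluripotency and epiblast genes in each of the 12 libraries, grouped by genotype and treatment. Points are libraries, horizontal bars the means and vertical bars 1 SD (n = 3; bars stop at 0). Tdh, Zfp42, Nr0b1, Klf2 and Foxd3 were lowest in ATRA-treated WT cells, while Nanog, Klf5 and Dppa4 overlapped between the genotypes with ATRA.

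The embryonic stem cell markers Pou5f1 and Sox2 were read in all 6 libraries at the levels given below. In the list of 20 genes shared by both pluripotent states, 11 were higher in TKO cells, 3 were lower and 6 were not called (median 0.48). The shares were 55% higher and 15% lower, against 16.4% and 25.7% of all tested genes. Sox2 read 186, 181 and 145 FPKM in WT and 297, 229 and 283 FPKM in TKO cells (difference 0.66, adjusted p 0.00167), and Utf1 rose from 165 ± 25.5 to 317 ± 32.3 FPKM (SD, n = 3; difference 0.95, adjusted p 0.00175). Pou5f1, which encodes Oct4, read 808, 889 and 788 FPKM in WT and 1037, 1235 and 934 FPKM in TKO cells. Its groups did not overlap, but its small difference of 0.36 (adjusted p 0.0288) lost the call without the D or G library of WT or the D or F library of TKO, with adjusted p from 0.0571 to 0.114. Foxd3, a forkhead repressor needed to keep stem cells undifferentiated, read 0.547, 1.30 and 0.244 FPKM in WT and 16.5, 28.3 and 13.4 FPKM in TKO cells (difference 3.57, adjusted p 2.7e-05). The genes lower in TKO cells were Tdgf1, the Nodal co-receptor, at 718 and 411 FPKM on average (difference -0.79, adjusted p 0.000413), Dppa2 (difference -0.53, adjusted p 9.5e-05) and the epithelial cadherin Cdh1 (difference -0.50, adjusted p 0.00344).

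Genes of the primed epiblast, the later pluripotent state, did not move as a block. Of 15 tested, 2 were higher (13.3%), 4 were lower (26.7%) and 9 were not called (median -0.34). These shares were near the 16.4% and 25.7% of all tested genes. Cdh2, called higher, reached 1 FPKM in TKO libraries only, so the filter set its direction. Otx2, a head and epiblast homeobox gene, read 0.211, 0.698 and 0.246 FPKM in WT and 17.9, 17.9 and 19.4 FPKM in TKO cells (difference 3.83, SE 0.19, adjusted p 1.6e-07). The TKO libraries were tightly grouped, and they were also higher in vehicle, at 20.1 ± 1.45 FPKM against 2.32 ± 0.890 FPKM in WT (SD, n = 3). Tcf15, a mesoderm and epiblast factor, was in contrast 138, 117 and 174 FPKM in WT and 33.8, 50.5 and 28.1 FPKM in TKO cells (difference -1.93, adjusted p 0.000492). Zic5 was 4.40 ± 1.11 FPKM in WT and 2.01 ± 0.568 FPKM in TKO cells (SD, n = 3; difference -0.84, adjusted p 0.00601).

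Primitive endoderm genes were called in both directions. Of 18 tested, 7 were higher (38.9%), 3 were lower (16.7%) and 8 were not called, against 16.4% and 25.7% of all tested genes. In vehicle 12 were higher and 1 was lower. Cubn and Sox17 reached 1 FPKM in TKO libraries only, so the filter set their direction. The lower genes were Gata6, a master regulator of this lineage, Sox7, a transcription factor of the same lineage, and Serpinh1, a collagen chaperone. Serpinh1 read 136, 142 and 120.5 FPKM in WT and 26.0, 36.4 and 28.5 FPKM in TKO cells (difference -2.11, adjusted p 4.0e-06), and Sox7 fell from 7.68 ± 1.44 to 2.16 ± 0.589 FPKM (SD, n = 3; difference -1.46, adjusted p 6.2e-05). Among the higher genes were the basement membrane genes Lamb1, at 13.9 ± 1.23 and 29.7 ± 6.66 FPKM, and Sparc, at 117 ± 1.44 and 221 ± 56.4 FPKM (SD, n = 3; differences 1.02 and 0.87, adjusted p 0.000673 and 0.00167). Gata4, the other GATA factor of the lineage, did not differ by more than its spread (difference -0.06, 95% interval -0.58 to 0.45). The summed level of the list was 467 to 469 FPKM in WT and 436 to 635 FPKM in TKO libraries, the highest being the F library.

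Trophoblast and epithelial genes showed some of the widest spread among TKO libraries. Hand1, a trophoblast and mesoderm factor, read 0.827, 1.25 and 0.769 FPKM in WT and 14.5, 20.04 and 4.22 FPKM in TKO cells, and Krt18, a keratin of simple epithelia, read 7.42, 6.23 and 7.03 FPKM in WT and 30.9, 44.9 and 12.9 FPKM in TKO cells. For both genes the F library of TKO was the highest and the G library the lowest, and even the latter lay above all WT libraries. The differences were 2.63 for Hand1 (SE 0.53, adjusted p 0.00227) and 1.79 for Krt18 (SE 0.43, adjusted p 0.0063). With the D library of WT and the F library of TKO both left out, the difference of Krt18 was 1.47 and was not called, and 1 gene of the list was called higher. In the trophoblast list 5 of 15 tested genes were higher and 5 lower (33.3% each, against 16.4% and 25.7% of all tested genes). However, 3 were higher without the D or F library of WT or the D library of TKO. Without the D library of WT or of TKO, 3 or 2 were lower. Among the lower genes, Esx1, a placental homeobox gene, fell from 4.07 ± 0.329 to 1.37 ± 0.126 FPKM, and Cdkn1c, an imprinted inhibitor of cell division, from 22.0 ± 5.43 to 7.80 ± 0.534 FPKM (SD, n = 3; differences -1.09 and -1.36, adjusted p 1.6e-05 and 0.000552). The summed level of the trophoblast list was 154 to 180.3 FPKM in WT and 152 to 232 FPKM in TKO libraries, and its part in these results was not tested.

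Of 19 tested adhesion genes, 10 were higher (52.6%, against 16.4% of all tested genes), 4 were lower (21.1%, against 25.7%) and 5 were not called (median 0.80), with 10 higher and none lower in vehicle. The directions of Anxa1 and Cdh2, which reached 1 FPKM in TKO libraries only, and of Zeb2, which reached it in ATRA-treated WT libraries only, were set by the expression filter. Anxa1, a membrane-binding protein, read 0.460, 0.414 and 0.680 FPKM in WT and 12.8, 18.6 and 7.92 FPKM in TKO cells (difference 3.15, adjusted p 1.5e-05). Cyr61, a secreted matrix protein that responds to YAP, read 3.29, 2.85 and 2.84 FPKM in WT and 11.6, 14.1 and 11.1 FPKM in TKO cells (difference 1.73, adjusted p 1.1e-05). Cldn4, a tight junction protein, read 20.3, 25.8 and 17.6 FPKM in WT and 77.5, 70.2 and 106 FPKM in TKO cells (difference 1.94, adjusted p 1.3e-05). None of these genes overlapped between genotypes. Zeb2, a repressor of Cdh1, was lower in TKO cells, at 0.131, 0.0909 and 0.182 FPKM against 2.32, 2.10 and 1.75 FPKM in WT (difference -1.43, adjusted p 1.7e-06), although Cdh1 itself was lower as well.

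Of 20 neural genes 10 were tested, with 3 higher (30%) and 3 lower (30%), against 16.4% and 25.7% of all tested genes. Sox11 reached 1 FPKM in TKO libraries only, so the filter set its direction. Pax6, a neural and eye regulator, read 5.56, 4.83 and 4.98 FPKM in WT and 0.351, 0.227 and 0.703 FPKM in TKO cells (difference -2.11, adjusted p 1.5e-05), and Sox1, an early neural plate factor, fell from 2.59 ± 0.483 to 0.926 ± 0.155 FPKM (SD, n = 3; difference -0.89, adjusted p 0.000132). Tubb3, a neuronal tubulin, was higher instead, at 47.1 ± 5.88 FPKM against 20.8 ± 2.74 FPKM (SD, n = 3; difference 1.14, adjusted p 0.000279). In the mesoderm list 5 of 19 genes were tested; Wnt3a was lower (difference -1.46, adjusted p 0.000528), Kdr, the receptor of vascular growth factor, was higher (difference 1.22, adjusted p 0.00355) but reached 1 FPKM in TKO libraries only, so the filter set its direction, and Nodal was not called at 43.0 ± 2.96 and 42.2 ± 5.96 FPKM (SD, n = 3; 95% interval of the difference -0.31 to 0.24). Without the D library of TKO, 2 mesoderm genes were lower. In the list of meiosis and germ cell genes, of 15 tested 5 were lower, Stra8 included (33.3%, against 25.7% of all tested genes). The share called higher was 6.67%, against 16.4%. The 1 gene called higher, Prdm1, lost its call without the D or G library of either genotype, and 2 were higher without the F library of WT. Lower genes included Rec8, the meiotic cohesin, from 20.7 ± 4.03 to 6.56 ± 1.42 FPKM (SD, n = 3; difference -1.52, adjusted p 0.000133), and Ddx4, the germ cell helicase Vasa, from 12.2 ± 2.64 to 5.06 ± 0.718 FPKM (SD, n = 3; difference -1.11, adjusted p 0.00131).

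**Figure D4:**
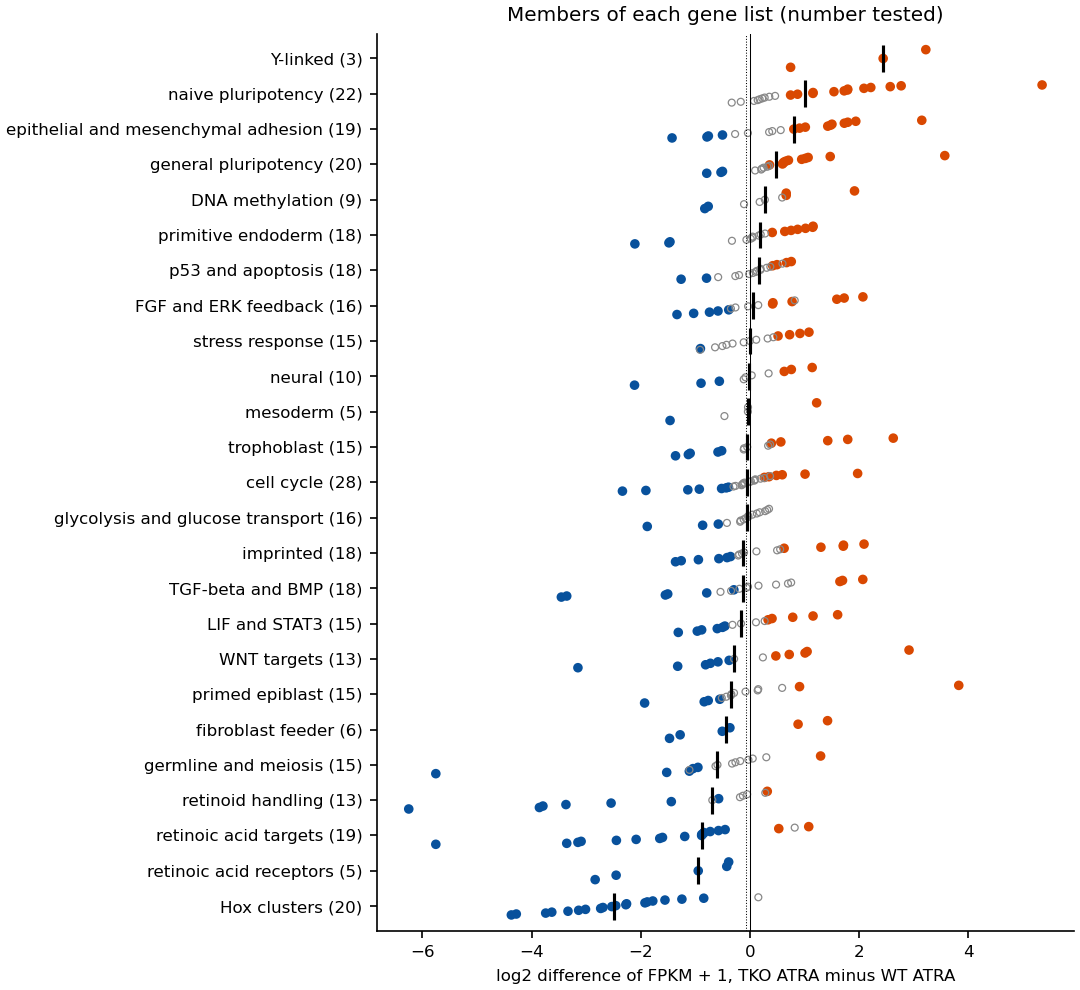
Log2 difference of FPKM + 1, ATRA-treated TKO minus ATRA-treated WT, for each tested member of 25 gene lists (horizontal axis), 1 row per list with the number tested, ordered by median. Filled points are called (orange higher, blue lower), open points are not called, thick bars are list medians, the solid line is 0 and the dotted line is the median of all tested genes. Hox genes lie lowest, with a median of -2.49, and naive pluripotency genes lie near the top, with a median of 1.01.

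Signalling genes were called in both directions. In the TGF-beta and BMP list 6 of 18 tested were lower (33.3%) and 3 higher (16.7%), against 25.7% and 16.4% of all tested genes. Of the 18, 1 reached 1 FPKM in TKO libraries only, so the filter set its direction. Lefty1, a secreted Nodal inhibitor, read 432, 408 and 241 FPKM in WT and 21.1, 27.8 and 62.0 FPKM in TKO cells (difference -3.35, adjusted p 9.7e-05). The G library was the lowest WT library for this gene, still above every TKO library. Lefty2, the neighbour and relative of Lefty1, was not called (difference -0.19, 95% interval -1.27 to 0.89), with 132 FPKM in the F library of WT and at most 70.5 FPKM in the others. Fst, a binder of activin, rose from 0.182 ± 0.0978 to 2.76 ± 0.830 FPKM (SD, n = 3; difference 1.65, adjusted p 0.000246).

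In the list of FGF and ERK genes 6 of 16 were higher (37.5%) and 5 lower (31.2%), against 16.4% and 25.7% of all tested genes. Fgf4, the ligand that embryonic stem cells secrete, read 19.8, 29.96 and 22.2 FPKM in WT and 79.8, 87.5 and 74.6 FPKM in TKO cells (difference 1.73, adjusted p 9.0e-06). Egr1, an immediate early gene of the pathway, read 1.33, 0.977 and 0.939 FPKM in WT and 8.27, 5.47 and 10.03 FPKM in TKO cells (difference 2.07, adjusted p 4.8e-05). The receptor Fgfr3 went the other way, at 2.29, 2.68 and 2.45 FPKM in WT and 0.386, 0.380 and 0.357 FPKM in TKO cells (difference -1.34, adjusted p 3.0e-06). All 3 genes separated the genotypes fully. Etv5, an ETS factor downstream of FGF, rose from 84.6 ± 2.28 to 145 ± 1.33 FPKM (SD, n = 3; difference 0.77, adjusted p 4.6e-05).

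WNT target genes included 5 higher (38.5%) and 6 lower (46.2%) of 13 tested, against 16.4% and 25.7% of all tested genes. However, 3 were higher without the F library of WT or without the D or the F library of TKO. Of the 13, 1 reached 1 FPKM in ATRA-treated WT libraries only, so the filter set its direction. Notum, a secreted enzyme that inactivates WNT proteins, read 2.30, 2.82 and 2.46 FPKM in WT and 22.9, 35.5 and 20.5 FPKM in TKO cells (difference 2.91, adjusted p 1.5e-05). Tcf7l1, the repressor among the TCF factors of stem cells, read 75.7, 73.0 and 79.1 FPKM in WT and 27.5, 33.6 and 28.4 FPKM in TKO cells (difference -1.32, adjusted p 3.3e-06). Both genes separated the genotypes without overlap. Sfrp1, a secreted WNT antagonist, rose from 12.6 ± 1.02 to 27.0 ± 2.01 FPKM (SD, n = 3; difference 1.05, adjusted p 1.6e-05), and it was 26.1 ± 2.46 FPKM in WT vehicle libraries (SD, n = 3), so WT cells with ATRA stood apart from the other 3 groups.

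In the LIF and STAT3 list 5 of 15 were higher (33.3%, against 16.4% of all tested genes) and 6 lower (against 25.7%), with 3 lower without the D library of WT and 3 in each direction without the D library of TKO. Socs2, a feedback inhibitor of cytokine signalling, read 10.3, 9.11 and 7.67 FPKM in WT and 29.1, 26.0 and 33.4 FPKM in TKO cells (difference 1.61, adjusted p 8.8e-06). Klf4, a LIF-induced factor, rose from 60.8 ± 19.6 to 134 ± 21.8 FPKM (SD, n = 3; difference 1.16, adjusted p 0.000853). Bcl3, a coactivator induced by STAT3, fell from 40.4 ± 5.43 to 15.7 ± 2.42 FPKM and the kinase Jak1 from 23.0 ± 0.573 to 15.99 ± 0.552 FPKM (SD, n = 3; differences -1.31 and -0.50, adjusted p 7.1e-05 and 0.000178).

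Of 9 genes that write or erase DNA methylation, 3 were higher (33.3%) and 2 lower (22.2%), against 16.4% and 25.7% of all tested genes. Dnmt3l, a cofactor of the de novo methyltransferases, read 60.2, 66.1 and 71.1 FPKM in WT and 239, 282 and 233 FPKM in TKO cells (difference 1.92, adjusted p 5.4e-06). Tet1, an eraser, rose from 29.6 ± 0.664 to 47.7 ± 5.45 FPKM (SD, n = 3; difference 0.66, adjusted p 0.000965), and Tet3 fell from 5.18 ± 0.659 to 2.52 ± 0.665 FPKM (SD, n = 3; difference -0.83, adjusted p 0.00378). Tet1 and Tet3 thus differed in opposite directions. Of 18 imprinted genes 5 were higher (27.8%) and 6 lower (33.3%), against 16.4% and 25.7% of all tested genes, and 2 of those higher, H19 and Plagl1, passed the filter through TKO libraries only. Plagl1 read 0, 0.0294 and 0.0225 FPKM in WT and 4.35, 2.86 and 2.93 FPKM in TKO cells (difference 2.09, adjusted p 1.5e-06), and it reached 1 FPKM in TKO libraries only, so the filter set its direction. Mest, an imprinted gene expressed from the paternal allele, read 24.96, 19.3 and 26.5 FPKM in WT and 75.0, 80.6 and 81.7 FPKM in TKO cells (difference 1.71, adjusted p 2.3e-06). Both were also higher in TKO vehicle libraries, with differences of 2.202 and 1.21.

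Cell cycle genes stood near the background of all genes, with 6 of 28 higher (21.4%, against 16.4%) and 7 lower (25%, against 25.7%). Without the D library of WT 3 were higher. Pttg1, the securin that holds sister chromatids together, read 102, 144 and 108 FPKM in WT and 23.5, 17.2 and 27.3 FPKM in TKO cells (difference -2.33, adjusted p 1.3e-05), much as in vehicle (difference -2.40). Cdk6, a kinase of the first gap phase, rose from 1.48 ± 0.210 to 8.80 ± 1.37 FPKM (SD, n = 3; difference 1.97, adjusted p 5.6e-06), and Cdkn2a, which encodes an inhibitor of it, fell from 40.2 ± 2.67 to 20.7 ± 1.44 FPKM (SD, n = 3; difference -0.93, adjusted p 1.4e-05). Glycolysis genes were mostly not called, with none of 16 higher and 3 lower (18.8%, against 25.7% of all tested genes). The glucose transporter Slc2a1 read 656, 481 and 987 FPKM in WT and 149, 280.3 and 148 FPKM in TKO cells (difference -1.88, adjusted p 0.00274). Among 18 genes of the p53 and cell death list, 4 were called higher (22.2%, against 16.4% of all tested genes) and 2 called lower (11.1%, against 25.7%); Trp53 itself rose from 167 ± 15.0 to 283 ± 27.1 FPKM, and Bcl2l11, the death effector Bim, fell from 14.1 ± 2.33 to 5.27 ± 0.646 FPKM (SD, n = 3; differences 0.76 and -1.26, adjusted p 0.00067 and 4.7e-05). Of 15 stress genes 4 were higher (26.7%) and 1 was lower (6.67%), against 16.4% and 25.7% of all tested genes. Fos, called higher, reached 1 FPKM in TKO libraries only, so the filter set its direction. The heat shock gene Hspb1 rose from 427 ± 26.8 to 903 ± 31.8 FPKM (SD, n = 3; difference 1.08, adjusted p 3.7e-06).

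Markers of fibroblasts, the usual feeder cells, were low in all libraries. The summed level of 15 markers was 26.5 to 32.7 FPKM in WT and 23.7 to 26.8 FPKM in TKO libraries. The filter passed 6, with 2 higher (33.3%) and 4 lower (66.7%), against 16.4% and 25.7% of all tested genes. Lum was listed at 0 in all 6 libraries with ATRA, and Dcn, Col3a1 and Postn were listed at 0 in all WT libraries and at no more than 0.0710 FPKM in TKO libraries. Acta2, not tested, was also listed at 0 in all WT libraries with ATRA but read 0.591, 0.497 and 1.60 FPKM in TKO cells with ATRA. Of the 15 genes of the rare state that resembles the embryo after its first cleavage, 12 were in the table and none was tested, with a sum of at most 1.26 FPKM in any of these libraries.

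The largest falls outside the gene lists were in Dleu7, Igsf21, Sorcs2 and Col13a1. Igsf21, an immunoglobulin-family synaptic protein, read 61.3, 58.5 and 52.8 FPKM in WT and 3.48, 3.199 and 3.36 FPKM in TKO cells (difference -3.75, SE 0.10, adjusted p 3.3e-09). Sorcs2, a sorting receptor for neurotrophin signalling, read 21.0, 20.7 and 18.2 FPKM in WT and 0.435, 0.542 and 0.710 FPKM in TKO cells (difference -3.75, SE 0.11, adjusted p 3.3e-09). Both were also lower in TKO vehicle libraries, with differences of -2.46 and -1.87. Col13a1, a transmembrane collagen, fell from 19.4 ± 5.31 to 0.502 ± 0.0446 FPKM, and Dleu7 from 26.7 ± 3.98 to 0.970 ± 0.539 FPKM (SD, n = 3; differences -3.73 and -3.85, adjusted p 7.0e-07 and 4.0e-06).

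Among the largest rises outside the lists, Ntn1, the axon guidance cue netrin, read 0.310, 0.217 and 0.241 FPKM in WT and 26.6, 11.1 and 18.1 FPKM in TKO cells (difference 3.88, SE 0.44, adjusted p 5.1e-05). Morc1, a repressor of transposons in the germ line, read 3.64, 6.19 and 3.62 FPKM in WT and 42.7, 46.4 and 46.9 FPKM in TKO cells (difference 3.11, SE 0.15, adjusted p 1.6e-07). The TKO libraries were tight for Morc1 and spread for Ntn1, and neither gene overlapped. Gpx2, a glutathione peroxidase, rose from 1.70 ± 0.399 to 26.7 ± 12.3 FPKM, and Ddx58, the viral RNA sensor RIG-I, from 0.834 ± 0.110 to 12.7 ± 3.90 FPKM (SD, n = 3; differences 3.27 and 2.86, adjusted p 2.1e-05 and 1.2e-05). Spink3, a protease inhibitor, rose from 3.04 ± 1.95 to 29.5 ± 8.86 FPKM (SD, n = 3; difference 2.97, adjusted p 6.9e-05), and Ly6g6e, a membrane-anchored Ly6 protein, from 2.83 ± 2.06 to 30.7 ± 5.25 FPKM (SD, n = 3; difference 3.17, adjusted p 0.000125). In vehicle Ly6g6e was 29.2 ± 14.7 FPKM in WT and 35.3 ± 7.72 FPKM in TKO cells (SD, n = 3), a difference that was not called.

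How much of the state reached with ATRA was already present in vehicle was read from the same model. In vehicle 3046 genes were called (24.6%). The ATRA and vehicle comparisons use different libraries of each genotype. Of the 2023 genes higher in TKO with ATRA, 1041 were also higher in vehicle (51.5% of the former and 71.2% of the latter), and of the 3178 lower genes, 1274 were also lower in vehicle (40.1% and 80.4%). The rest comprised 969 higher and 1882 lower genes not called in vehicle, and 35 genes called in opposite directions. A gene called in one comparison and not in the other is not thereby shown to differ between them. The difference between the genotype differences was called at 671 genes (5.43%), 182 more positive (1.47%) and 489 more negative (3.96%) with ATRA, of which 612 were also called with ATRA. Within each genotype, libraries with the same letter deviated together between vehicle and ATRA (correlations 0.376 to 0.864), and with genotype and letter as a block 4998 genes were called for this difference. Without the D library of WT with ATRA 406 were called and without the G library of TKO with ATRA 447.

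The genes named for opposite calls were chosen by the size of their difference with ATRA. Cdx1, a caudal homeobox gene that regulates Hox genes, read 37.7, 38.1 and 30.1 FPKM in WT and 3.36, 3.33 and 2.57 FPKM in TKO cells with ATRA (difference -3.15, adjusted p 7.2e-07). In vehicle it was 1.65 ± 0.655 FPKM in WT and 2.93 ± 0.612 FPKM in TKO cells (SD, n = 3; difference 0.59, adjusted p 0.0466). The TKO level was thus about equal under both treatments, above WT in vehicle and below it with ATRA. Gata6 had the same form, at 11.9 ± 3.68 and 3.59 ± 1.17 FPKM with ATRA and 1.08 ± 0.413 and 3.23 ± 0.723 FPKM in vehicle, WT before TKO (SD, n = 3; differences -1.48 and 1.03, adjusted p 0.000584 and 0.0104). So did Gatm, an enzyme of creatine synthesis (differences -1.44 and 0.42, adjusted p 9.9e-06 and 0.0367), and Epha2, an ephrin receptor (differences -0.92 and 0.69, adjusted p 0.00372 and 0.0284). Krt17, a keratin, was instead higher in TKO cells with ATRA and lower in vehicle. It was 7.53 ± 3.09 and 14.7 ± 3.02 FPKM with ATRA and 28.2 ± 2.79 and 12.5 ± 4.11 FPKM in vehicle (SD, n = 3). The ATRA difference of Krt17 (0.93, adjusted p 0.0195) lost its call without the D library of WT, at 0.62 (adjusted p 0.0762), and without the F or G library of TKO (adjusted p 0.0591 and 0.0624).

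The genotype difference was not even over the chromosomes. Relative to the other autosomes, the median difference on chromosome 6 was -0.235, and on chromosome 11 it was 0.243. On chromosome 6, 49.6% of 589 tested genes were called, with 6.45% higher and 43.1% lower. On chromosome 11, 47.8% of 1062 were called, with 33.3% higher and 14.5% lower. On the 17 other autosomes 41.0% of 10280 genes were called, with 14.9% higher and 26.1% lower, and chromosome medians lay between -0.155 and 0.00444. Each ATRA-treated TKO library showed the shift, with -0.287, -0.223 and -0.184 on chromosome 6 and 0.276, 0.265 and 0.195 on chromosome 11, and the medians moved only within -0.266 to -0.198 and 0.229 to 0.268 when 1 library was left out.

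The shift began part of the way along each chromosome. The genes of each were divided in map order into 10 equal bins. On chromosome 6 the first 2 bins had medians of -0.05 and -0.10, and the other 8 lay between -0.51 and -0.24. On chromosome 11 the first 3 bins lay between -0.05 and 0.02, the next was 0.11 and the other 6 lay between 0.20 and 0.34. The vehicle comparison took a similar course, except that on chromosome 6 the medians were positive in the first 2 bins and -0.00457 in the next. Genes of the Hoxa cluster and Stra8 are on chromosome 6 and genes of the Hoxb cluster and Rara are on chromosome 11, and the part of these shifts in their differences was not tested.

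**Figure D5:**
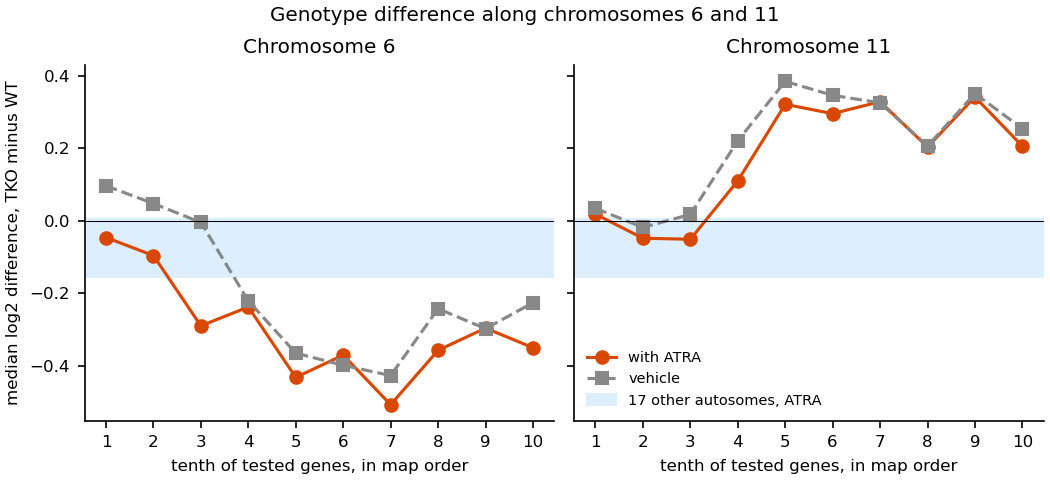
Median log2 difference (vertical axis), TKO minus WT, for 10 equal bins of the tested genes in map order along chromosomes 6 and 11 (horizontal axis), with ATRA (orange) and in vehicle (grey). The band spans the medians of the 17 other autosomes with ATRA, -0.155 to 0.00444. On chromosome 6 the line drops below the band from bin 3 on, and on chromosome 11 it lies clearly above the band from bin 4 on, with bin 1 just above it.

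Genes of the Y chromosome separated the genotypes too. Of 17 rows on it 4 were tested, and all 4 were higher in TKO cells. Ddx3y, an RNA helicase, read 0.846, 2.83 and 1.47 FPKM in WT and 29.3, 19.7 and 21.6 FPKM in TKO cells (difference 3.22, adjusted p 9.0e-06), and Uty, a histone demethylase homologue, read 0.210, 0.392 and 0.256 FPKM in WT and 7.35, 4.36 and 6.57 FPKM in TKO cells (difference 2.44, adjusted p 7.5e-06). Uty reached 1 FPKM in TKO libraries only, so the filter set its direction. Eif2s3y, a translation factor subunit, differed less, at 20.7, 39.4 and 21.9 FPKM in WT and 44.3, 42.3 and 47.3 FPKM in TKO cells (difference 0.75, adjusted p 0.0271). That call was lost without the D or G library of WT or of TKO (adjusted p 0.0622 to 0.110). The F library was the highest of the WT libraries for all 3 genes. In vehicle the differences of Ddx3y and Uty were 3.26 and 2.47, close to those with ATRA.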

How the data were processed

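Values were the FPKM per gene that the authors deposited in 1 table of 12 libraries. The header gives no unit; it was inferred from the numbers and from Cufflinks, which per the submitters' processing notes was used along with STAR and GRCm38 (no versions or roles). Per the labels' protocols, RNA was isolated with RNeasy and sequenced single-end on a HiSeq4000 from Illumina TruSeq libraries; the labels state no strand setting, so values of genes with an opposite-strand neighbour are uncertain. The table had 23686 rows, of which 18 exact repeats were removed, and 641 rows shared a symbol with another row. Positions are GRCm38, taken by symbol from the GENCODE annotation, since the table's own positions are of another build.

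All 12 libraries entered 1 limma 3.58.1 model in R 4.3.3, with a mean per group on log2(FPKM + 1), 8 residual degrees of freedom, and trend and robust settings. The genes tested had at least 1 FPKM in at least 3 libraries, and p-values were adjusted by Benjamini-Hochberg over all 12362. The difference of the genotype differences between ATRA and vehicle came from the same model. The test was tried on simulated data. Genes named were the receptors, the 12 largest rises and 12 largest falls with no overlap and a mean of at least 5 FPKM in the higher group, up to 4 per list, and 6 with opposite calls in vehicle; other list members are given by their values. Results for some genes that this rule includes were left out of the text. Members and lists were chosen with earlier results of these data known. Column letters match no replicate number in the sample titles. Deviations from group means correlated at -0.515 to 0.287 between same-letter libraries of different genotypes, so the genotype comparison was not blocked by letter. Alternatives were another pseudocount (0.1), other filters, other scaling, blocks, and leaving out each ATRA library in turn.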

Additional observations from a re-analysis of the deposited data

Results flagged for a closer look

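The genotype difference with ATRA differed from that in vehicle, by limma's test of that difference across the 12362 genes, at 671 genes. The genes below are those described in the report for their receptor role, for the size of their difference with ATRA or for an opposite call in vehicle, and each value is the log2 difference with ATRA less that in vehicle. A negative value means that the TKO minus WT difference was lower with ATRA than in vehicle. TKO cells then lay further below WT cells with ATRA, less far above them, or below them after lying above them in vehicle.

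The steepest were Cyp26a1 at -6.91, Stra6 at -3.998, Hoxa5 at -4.11, Dhrs3 at -3.55, Hoxa3 at -3.31, Hoxa4 at -3.18 and Cdx1 at -3.74. Hoxb2 stood at -4.30, a value that depends on the pseudocount because the gene is listed at 0 in all TKO libraries with ATRA. Hoxa3, Hoxa4, Hoxa5, Hoxb2, Dhrs3 and Rarb reached 1 FPKM in ATRA-treated WT libraries only, so the filter partly set the direction of their values. Stra6 was likewise below 1 FPKM on average in every other group. Stra8 stood at -2.73, Rarb at -2.57, Gata6 at -2.51, Dleu7 at -2.33, Sorcs2 at -1.87, Gatm at -1.86, Col13a1 at -1.68, Epha2 at -1.60 and Igsf21 at -1.29. Values above 0 were found for Tdh at 3.91, Ly6g6e at 2.79, Foxd3 at 2.16, Krt17 at 2.08, Morc1 at 1.33 and Otx2 at 1.13. In WT cells Tdh and Foxd3 were lower with ATRA than in vehicle, whereas their levels in TKO cells were alike under both treatments.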

How the results depend on the processing

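The count of genes called with ATRA, 5201, was 3791 to 6276 under other pseudocounts, filters, scalings and all-library blocks and 4026 to 4819 with 1 library left out. It was 2737 with ATRA libraries only and the letter as replicate block, and 3341 without the D library of WT and the F library of TKO together, a setting added after seeing the data. The 671 genes whose genotype difference changed with ATRA became 349 at 5 FPKM or more, 4998 with genotype and letter as a random replicate block, 406 to 710 with 1 library left out and 275 without both libraries. Of 106 named genes, 97 kept their call under all those of the 17 alternatives that tested them. The other 9 (among them Bbc3, Eif2s3y, Krt17, Krt18, Rxrb, Tet3, Tpi1 and Zic5) lost it under 1 or more, and none reversed. Genes too low for the filter at 5 FPKM, such as Cdh2 and Fgfr3, were not tested there and had no call to keep. Of 228 list members and named genes, 154 kept their call under every alternative that tested them and 41 lost it when 1 library was left out. Dppa4 and Klf5, neither called, reversed: Dppa4 ranged from -0.00194 to 0.21 with 1 library left out and was -0.0375 without both, and Klf5 ranged from -0.34 to 0.14 and was 0.16. The causes were not tested. FPKM without counts gives no depth, so low genes carry an unknown counting error.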
